A study of Mus musculus with 96 samples.

Results

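The genes described here encode the subunits of the mitochondrial oxidative phosphorylation chain, and 8 Ndufaf genes whose products assemble complex I. They were chosen by symbol: every protein-coding gene of the expression table whose mouse symbol starts with Ndufa, Ndufb, Ndufc, Ndufs, Ndufv, Uqcr, Cox4 to Cox8 or Atp5. The prefixes mt-Nd, mt-Co, mt-Cytb and mt-Atp and the symbols Sdha, Sdhb, Sdhc, Sdhd, Cyc1 and Cycs also counted. Of 109 gene identifiers that carry such a symbol in the annotation, 13 are mitochondrially encoded. The table of 38887 genes held 95, all of them nuclear. Of these, 36 encode subunits of complex I, 4 of complex II, 9 of complex III, 20 of complex IV and 17 of complex V (ATP synthase), 1 encodes cytochrome c and 8 are the assembly genes. The 13 mitochondrially encoded subunits also met the rule and were not analysed here.

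The cells were neurons of the lateral superior olive (LSO), an auditory brainstem nucleus, in slices from C57BL/6 J mice of both sexes in the second postnatal week. Each was patch-clamped, its cytoplasm was drawn into the pipette and sequenced as 1 Smart-seq2 library (Patch-seq). The firing pattern named the groups: Onset and Sustained principal neurons (pLSOs), which project to the auditory midbrain, and Delayed neurons, the lateral olivocochlear neurons (LOCs), which project to the cochlea. A negative control was a pipette that had only touched the slice. The series held 44 Onset, 12 Sustained and 30 LOC neurons and 10 controls, all without any treatment or transgene. The rule kept 41 Onset and 11 Sustained neurons (52 pLSOs), 28 LOCs and 8 controls. The libraries left out were cell_36, cell_39, cell_40, cell_54, cell_78, cell_85, NC5 and NC6. Of these, cell_54 carried the Sustained label but held LOC markers at 22495 RPM (estimated reads scaled to one fixed total per library) and pLSO markers at 18.7, NC5 and NC6 held pLSO markers at 4261 and 1521, and cell_40, labelled Onset, held them at 62.4. The other 4 held the markers of their label. The labels name no animals, so each class counted as 1 sample, no test between classes was made, and ratios, AUROCs and SDs describe the spread over neurons.

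In the inner mitochondrial membrane, complexes I to IV pass electrons from NADH and succinate to oxygen through ubiquinone and cytochrome c, and complexes I, III and IV pump protons out of the matrix. Complex V lets the protons flow back and makes ATP. Complex II is the only one with no mitochondrially encoded subunit and also acts in the citric acid cycle. Auditory brainstem neurons fire at high rates and carry large potassium conductances, and their ion pumps take much of this ATP.

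The numbers in the table could not be compared between genes as they stood. In the rows of low number, the values of a library were whole multiples of a fixed step, so that the length by which each row had been divided could be measured. Over 3600 rows this length differed by at most 4 bases from the annotated gene lengths sorted by size less 80 bases, whichever gene stood in the row. Rows were ordered by gene identifier, so a member high in the table had been divided by a short length and a member low in the table by a long one. The 36 members of the first 4860 rows that passed the filter had a median mean of 540 TPM, and the other 46 had 24.6 TPM. Rescaled to the length of its own gene, the order turned round, with medians of 361 and 612 own-length TPM. The length of its own row cancels when a gene is compared between groups, and ratios are given on the deposited TPM. The total of each library still rests on the lengths of all rows, so ratios moved with the scale, and the median ratio of pLSOs over LOCs over all genes was 1.03 on deposited TPM, 1.18 on read shares and 1.19 at own gene length. Levels between genes and sums over genes are given as own-length TPM, rescaled to the length of each gene. From the same steps, the libraries of the 80 neurons held an estimated 188382 to 3232120 reads on genes (median 809700), with medians of 883798 in pLSOs and 724322 in LOCs, and the 8 controls held 3462 to 145906.

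**Figure D1:**
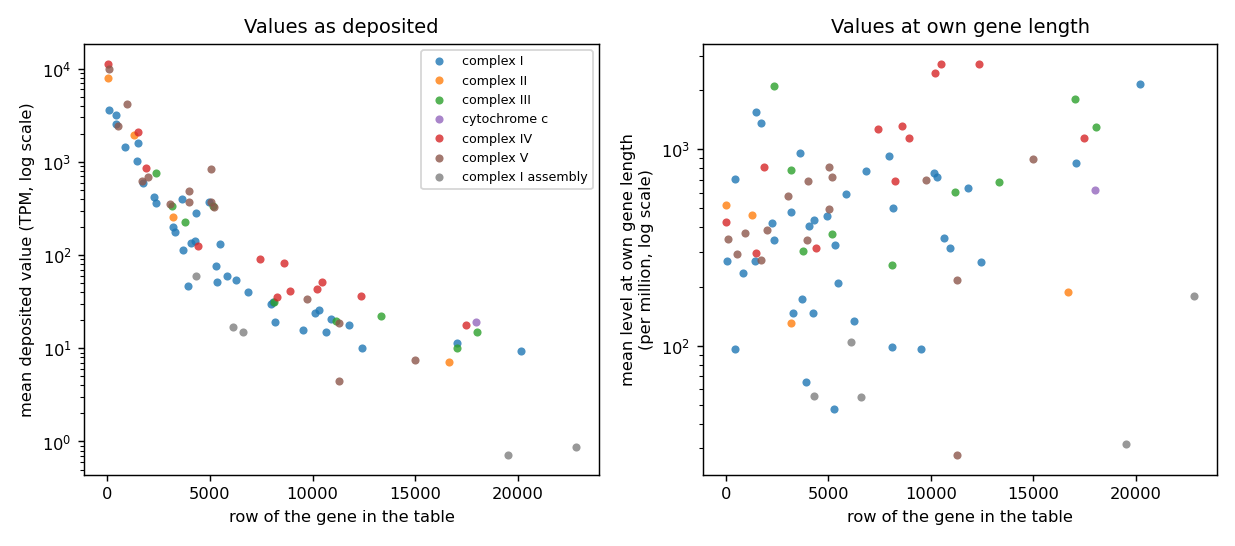
Mean over 80 neurons of each of the 82 members that passed the filter (points, coloured by complex), as deposited in TPM on the left and in own-length TPM on the right, both on log scales, against the row of the gene in the table. The deposited means fall along the table, with a median of 540 TPM over the 36 members of the first 4860 rows and 24.6 TPM over the 46 later ones, and at own gene length the medians are 361 and 612 own-length TPM.

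Detection of a member meant a value of at least 1 TPM, and 82 of the 95 members were detected in at least 20 of the 80 neurons, the filter for all comparisons (3815 of the 38887 genes passed it). All 36 genes of complex I, all 4 of complex II, all 9 of complex III and Cycs passed, and 12 of 20 genes of complex IV, 15 of 17 of complex V and 5 of 8 assembly genes. In all, 25 members were detected in at least 90% of the neurons, that is 30.5% of the 82, against 3.54% of all genes that passed. The widest were Atp5b, the catalytic beta subunit of ATP synthase, Atp5g1, a gene for its proton-carrying subunit c, and Cox6c of complex IV, each in 79 of 80 neurons. The coefficient of variation of the read share over neurons had a median of 0.954 over the members (0.672 to 2.21) and of 2.10 over all genes that passed. The 2 lists were not matched for detection, with medians of 67.5 and 32 neurons, and zeros raise this coefficient.

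At own gene length, the 95 members together held 5.17% of the transcript level of a neuron on average. Complex I made up 35.4% of this sum, complex IV 29.8%, complex III 15.9%, complex V 14.0%, complex II 2.52% and cytochrome c 1.20%. The order of the complexes depended on the scale. On read shares the members held 2.55%, with complex I at 32.1% of the sum, complex V at 24.4%, complex IV at 22.2% and complex III at 12.9%. Complex II then made up 3.86% and cytochrome c 2.96%. The highest single means were those of Cox6a1 (2738 own-length TPM) and Cox6b1 (2737), nuclear subunits at the periphery of cytochrome c oxidase, followed by Cox8a (2461). The highest in complex I were Ndufb6 (2154) and Ndufa2 (1543), accessory subunits, and in complex III Uqcr11 (2098) and Uqcr10 (1801), its smallest subunits. In complex V, Atp5k (895) and Atp5b (811) led, and in complex II Sdhd (521), a membrane anchor, and Sdhb (462), the iron-sulfur subunit. Exon overlap limits some of these values, since the library type does not keep the strand: 257 of the 659 exon bases of Ndufb6 overlap Smim27 on the other strand.

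Controls held members as well. At 1 TPM or more, 9 to 41 members were detected in a control (median 24), against 40 to 81 in a pLSO (median 69.5) and 26 to 87 in an LOC (median 65). Cox8a and Ndufa4, a subunit first assigned to complex I and now to complex IV, were found in 7 of 8 controls, and Cox6b1, Atp5b and Atp5j2 in 6 of 8. In all, 18 members were found in at least 4 controls, that is 21.95% of the 82, against 6.40% of all genes that passed. The summed level at own gene length ran from 21955 to 105515 own-length TPM in the controls (median 49094), inside the range of the neurons, but it rested on 73 to 8771 estimated reads, against 2719 to 106423 in pLSOs (median 24986) and 4110 to 59478 in LOCs (median 13603). The mean was 58582 own-length TPM in controls and 51691 in neurons, while on read shares it was 40797 and 25507 RPM and on deposited TPM 104375 and 64786. Not all complexes followed, since complex II had means of 60.8 own-length TPM in controls and 1301 in neurons, and cytochrome c 74.6 and 620. Oligodendrocyte markers, Mbp and Mog among them, were also found in most libraries, at 4207 to 79155 RPM in the controls (median 23445), 0 to 119143 in pLSOs (median 1636) and 16.1 to 76102 in LOCs (median 2391). Endothelial markers were at most 284 RPM in a neuron, with Kdr at 0 in all 80, and microglia markers reached 5691 in a pLSO and 4133 in an LOC.

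Several subunits of complexes IV and V exist as isoforms from separate genes, and in 6 of the 8 isoform sets examined a single gene held over 99% of the level in both classes. Cox4i1 held 99.8% of the level of its set, Cox6a1 99.9%, Cox6b1 99.8% and Cox8a 99.7%. Ndufa4 and Cox7b held all of theirs, since Ndufa4l2 and Cox7b2 were at 0 in all 80 neurons. Cox8c was likewise at 0 in all 80 neurons. A count of 0 of 52 pLSOs allows a share of up to 5.77%, and 0 of 28 LOCs up to 10.7%, from counting alone. These rows lie low in the table, where a value too low to round up to 1 TPM had been deposited as 0. In a neuron of median depth a deposited value of 1 TPM took 5.80 reads of Ndufa4l2, 6.91 of Cox8c and 8.63 of Cox7b2. The heart and muscle isoforms were rare: Cox6a2 and Cox8b, each in 1 pLSO and 1 LOC, and Cox7a1 in 0 of 52 pLSOs and 2 of 28 LOCs. Cox6b2, known from testis, was found in 0 of 52 pLSOs and 3 of 28 LOCs, and Cox4i2, the isoform linked to low oxygen, in 2 pLSOs. A value of 1 TPM took a median of 24.4 reads of Cox7a1 in pLSOs and 16.3 in LOCs. For Cox6b2 it took 11.7 and 7.79 reads. The Cox7a set was mixed, with 77.5% from Cox7a2, 21.2% from Cox7a2l, which acts in the assembly of supercomplexes, and 1.21% from Cox7a1.

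**Figure D2:**
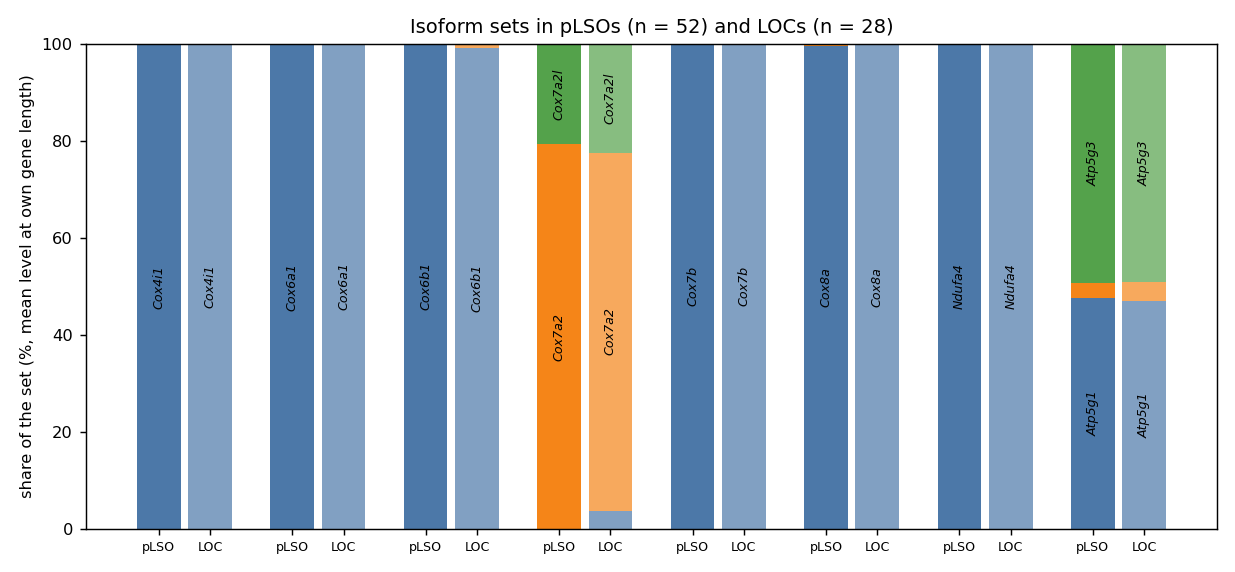
Share in percent of the mean level at own gene length that each gene held within its isoform set, as stacked bars for 52 pLSOs (full colour) and 28 LOCs (pale). The sets of Cox7a and Atp5g are divided between genes, with Cox7a2 at 79.3% and 73.8% and Atp5g3 at 49.3% and 49.2% in the classes.

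Subunit c of ATP synthase, whose ring turns as protons pass, is encoded by 3 genes that differ in their import sequence and give the same mature protein. In pLSOs Atp5g1 held 47.7% of the set, Atp5g3 49.3% and Atp5g2 3.04%. In LOCs the shares were 46.96%, 49.2% and 3.88%. Atp5g1 was detected in 52 of 52 pLSOs and 27 of 28 LOCs, Atp5g3 in 50 and 25, and Atp5g2 in 11 and 8. Atp5g2 lies low in the table, and about 13 reads were needed for a value of 1 TPM. Counted in reads rather than at own gene length, Atp5g1 led with 67.9% of the set, so the order of Atp5g1 and Atp5g3 depends on the gene lengths. To show how far reads can tell the genes apart, the last 90 coding bases up to the stop codon are given for each (Gencode vM21 on GRCm38), in lower case where the base is that of Atp5g1 and in capitals where it differs. The stretches lie in the last coding exon, on the minus strand, at chr11:96073104-96073193, chr15:102663014-102663103 and chr2:73908593-73908682.
Atp5g1: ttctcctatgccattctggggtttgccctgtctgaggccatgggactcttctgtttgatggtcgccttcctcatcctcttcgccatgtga
Atp5g2: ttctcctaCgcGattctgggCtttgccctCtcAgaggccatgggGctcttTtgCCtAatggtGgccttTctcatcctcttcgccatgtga
Atp5g3: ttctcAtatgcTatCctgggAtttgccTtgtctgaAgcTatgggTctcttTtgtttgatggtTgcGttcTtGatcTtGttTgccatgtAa
Within these 90 bases Atp5g2 differed from Atp5g1 at 12 positions and Atp5g3 at 17. Over the last 228 coding bases, which hold the mature subunit, Atp5g1 and Atp5g2 shared 85.1% of bases and their longest identical run was 21 bases, and Atp5g1 and Atp5g3 shared 79.8% with a longest run of 11 bases. All 76 codons encoded the same amino acids or a stop in the 3 genes, although 32 codons differed between Atp5g1 and Atp5g2 and 43 between Atp5g1 and Atp5g3. Processed copies of such genes elsewhere in the genome were not examined, and the authors counted primary alignments, so the values of genes with near-identical copies are uncertain.

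The comparison of pLSOs with LOCs asks whether 2 neuron classes with unlike firing differ in the transcripts of their respiratory chain. Most members did not differ by 2-fold. Of the 82 members, 5 had a mean at least 2-fold higher in pLSOs (6.10%), namely Cycs, Ndufs1, Sdhd, Ndufaf2 and Ndufaf4. Of all 3815 genes, 18.0% did so. Without the highest pLSO the ratio was 1.97 for Cycs, 1.74 for Ndufaf2, 1.81 for Ndufaf4, 2.26 for Sdhd and 2.45 for Ndufs1. A single member, Ndufaf8, had a mean at least 2-fold higher in LOCs, against 13.7% of all genes. The AUROC, the share of pairs of a pLSO and an LOC in which the pLSO held the higher value with ties shared equally, was 0.7 or more for 3 members, Cycs, Cox5a and Sdhb (3.66%), against 2.8% of all genes, and 0.3 or less for none, against 1.65%. By fold of arithmetic means the members' counts were below the background of all genes, and by AUROC one lay close to it and the other below. With geometric means of TPM + 1, less 1, 22 of 82 members were at least 2-fold higher in pLSOs, against 26.0% of all genes. That count was close to the background. In LOCs 1 member was higher, against 12.7%. The AUROC counts differed between neurons. In the 30 pLSOs and 10 LOCs between the quartiles of detected genes, an AUROC of 0.7 or more was held by 10 of 82 members and 5.77% of all genes. Among genes detected in at least 40 neurons, a level of detection closer to that of the members, the counts were 3 and 0 of 77 members by fold, against 11.3% and 8.66% of 1270 genes, and 3 and 0 by AUROC, against 5.51% and 1.97%.

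The shift over the members as a whole was small and went towards pLSOs. The median ratio of means was 1.12 over the 82 members and 1.03 over all genes, and the AUROC lay above 0.5 for 53 members (64.6%), against 58.3% of all genes. On read shares, where the median ratio of all genes was 1.18, it was 1.26 over the members, and the AUROC lay above 0.5 for 68 members (82.9%), against 61.2% of all genes. A direction for a member whose AUROC lay near 0.5 therefore depends on the scale. The median ratio was 1.07 for complex I, 1.62 for complex II, 1.00 for complex III, 1.18 for complex IV and 1.22 for complex V.

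**Figure D3:**
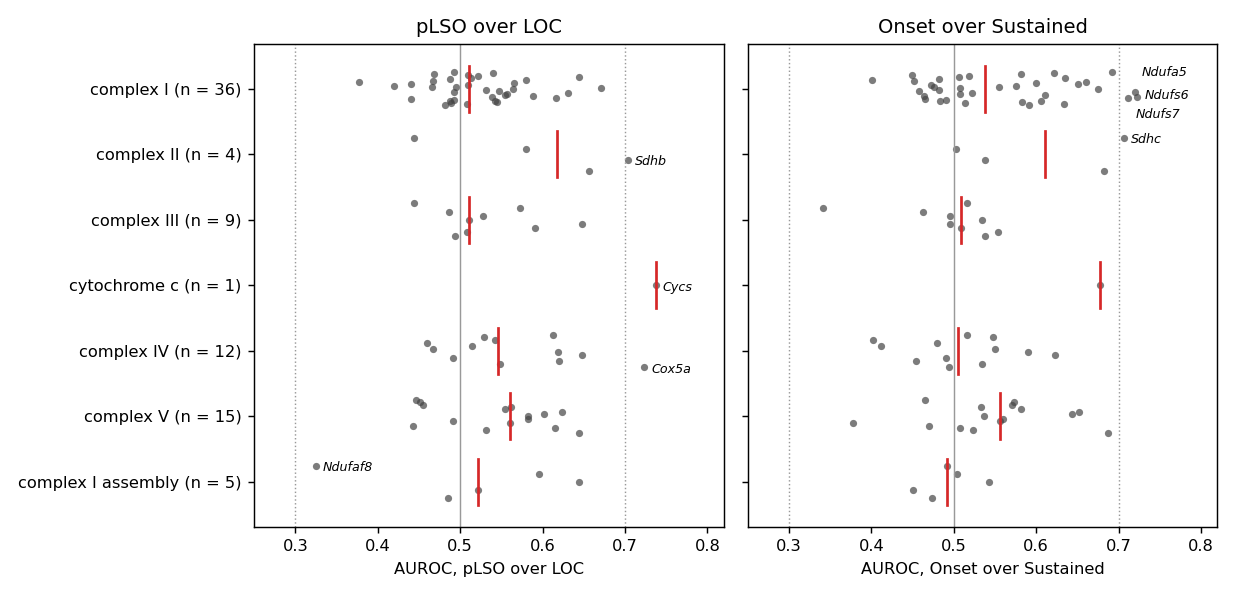
AUROC of each of the 82 members that passed the filter (points), by complex, for pLSOs over LOCs on the left and Onset over Sustained neurons on the right. Red lines are medians by complex and dotted lines mark 0.3 and 0.7. On the left Cycs, Sdhb and Cox5a reach 0.7, on the right Ndufa5, Ndufs6, Ndufs7 and Sdhc.

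Cycs encodes cytochrome c, the carrier of electrons from complex III to complex IV (chr6:50562563-50566538, minus strand). Its values ran from 0 to 83 TPM in pLSOs with a median of 20.5, from 0 to 37 TPM in LOCs with a median of 11.5, and from 0 to 29 TPM in the controls with a median of 0. The classes overlapped, with 7 of 52 pLSOs above the highest LOC and 6 of 28 LOCs above the pLSO median. The means were 23.6 ± 16.3 TPM (SD, n = 52) and 11.4 ± 10.5 TPM (SD, n = 28), a ratio of 2.07, and the AUROC was 0.737. It was detected in 50 of 52 pLSOs (96.2%, exact 95% interval 86.8 to 99.5%) and 20 of 28 LOCs (71.4%, 51.3 to 86.8%). Cycs lies low in the table, and in a neuron of median depth a value of 1 TPM took 13.7 reads, so a value of 0 does not show that the transcript was absent. Its ratio was under 2 with 1 or 10 TPM added, with all 86 neurons and where oligodendrocyte markers held under 1% of reads. It was 1.97 without the highest pLSO and 2.26 without the highest LOC. An AUROC of 0.7 or more was held by Cycs alone with all 86 neurons. Where oligodendrocyte markers held under 1% of reads, Sdhb alone held it.

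Cox5a encodes a nuclear subunit of cytochrome c oxidase that binds the matrix side of its core (chr9:57521274-57532426, plus strand). It ran from 0 to 38096 TPM in pLSOs with a median of 12558, from 0 to 25517 in LOCs with a median of 6093, and from 0 to 43257 in the controls with a median of 1488. These large numbers come from its place in row 11 of the table, and the median neuron held 232 estimated reads of it. The means were 13553 ± 8463 TPM (SD, n = 52) and 7274 ± 7157 TPM (SD, n = 28), with a ratio of 1.86 and an AUROC of 0.723. It was detected in 51 of 52 pLSOs and 20 of 28 LOCs, and in 4 of 8 controls. An antisense gene, Gm26631, overlaps 12.8% of its exon bases.

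The complex II gene Sdhb (chr4:140961203-140979193, plus strand) encodes the subunit that hands electrons on through its iron-sulfur clusters. It ran from 0 to 9496 TPM in pLSOs with a median of 1948, from 0 to 8156 in LOCs with a median of 429, and from 0 to 1470 in the controls with a median of 0. The ratio of means was 1.94 and the AUROC 0.704, with detection in 47 of 52 pLSOs and 17 of 28 LOCs. Sdhd, which anchors complex II in the membrane, had a pLSO median of 6013 TPM and an LOC median of 65 TPM, a ratio of means of 2.52 and an AUROC of 0.657, and was at 0 in 13 of 52 pLSOs and 12 of 28 LOCs. Sdha, the catalytic subunit, had a ratio of 1.31 and an AUROC of 0.580. This ratio moved to 1.19 without the highest pLSO and to 2.70 without the highest LOC. It was 2.00 on read shares, and at own gene length the means were 160 and 75.997 own-length TPM. At that scale Sdha and Sdhb were also at least 2-fold higher in pLSOs, which gave 7 such members. The second anchor Sdhc had a ratio of 0.627 and an AUROC of 0.444. Summed at own gene length, complex II reached 1567 ± 1003 own-length TPM in pLSOs (SD, n = 52) and 807 ± 748 in LOCs (SD, n = 28), a ratio of 1.94 with an AUROC of 0.730.

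Ndufs1, the largest subunit of complex I and the holder of several iron-sulfur clusters, was found in 32 of 52 pLSOs and 10 of 28 LOCs. It ran from 0 to 528 TPM in pLSOs with a median of 8, and from 0 to 457 TPM in LOCs with a median of 0. Its ratio of means was 2.68 and moved to 4.69 without the highest LOC, as the LOC mean went from 36.3 to 20.7 TPM. Without the highest pLSO the ratio was 2.45. The median neuron held about 1 estimated read of it, and it was found in no control.

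To show the sequence at the start of each of the 3 genes with an AUROC of 0.7 or more, the 250 bases upstream of its RefSeq start (GRCm38.p6) are given, in capitals where a motif was found. In Sdhb the last 68 of these bases lie inside the Gencode gene, which starts earlier. The stretches are chr6:50566570-50566819 on the minus strand, chr9:57520982-57521231 on the plus strand and chr4:140961021-140961270 on the plus strand.
Cycs: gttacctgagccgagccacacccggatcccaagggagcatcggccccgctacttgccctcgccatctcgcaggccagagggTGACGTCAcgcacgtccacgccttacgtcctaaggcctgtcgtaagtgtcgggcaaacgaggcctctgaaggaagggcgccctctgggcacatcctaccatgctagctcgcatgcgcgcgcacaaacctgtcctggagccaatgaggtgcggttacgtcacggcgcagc
Cox5a: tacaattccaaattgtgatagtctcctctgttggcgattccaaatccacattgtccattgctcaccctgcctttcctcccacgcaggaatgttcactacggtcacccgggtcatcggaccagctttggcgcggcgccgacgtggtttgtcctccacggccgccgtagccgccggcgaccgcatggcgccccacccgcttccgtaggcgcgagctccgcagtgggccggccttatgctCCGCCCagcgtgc
Sdhb: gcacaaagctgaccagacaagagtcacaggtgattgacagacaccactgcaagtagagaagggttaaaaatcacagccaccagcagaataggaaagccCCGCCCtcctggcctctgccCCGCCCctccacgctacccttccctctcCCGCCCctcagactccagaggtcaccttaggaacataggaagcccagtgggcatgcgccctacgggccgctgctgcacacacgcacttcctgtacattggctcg
The motifs were searched on both strands: the NRF1 site (GCGCA, any base, GCGC), the ETS site CCGGAAG bound by GABPA, the YY1 site AAGATGG, the ESRRA site TCAAGGTCA, the cyclic AMP response element TGACGTCA bound by CREB1, and the GC box GGGCGG bound by SP1. The capitals mark the response element of Cycs and, read on the other strand, 1 GC box of Cox5a and 3 of Sdhb. Of the 95 members, 75 had a promoter in the table. Among these, 17.3% held the NRF1 site, against 5.48% of 16522 protein-coding genes, 17.3% the ETS site, against 9.45%, 6.67% the response element, against 2.08%, 1.33% the ESRRA site, against 0.321%, 0% the YY1 site, against 4.10%, and 38.7% the GC box, against 44.3%. Motifs did not overlap each other in the 3 promoters shown. A match describes letters and not a bound site.

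The classes were also compared by how many neurons held a transcript. Of the 82 members, 62 were detected in a larger share of pLSOs than of LOCs (75.6%, against 59.3% of all genes), and for 9 members (11.0%, against 11.7% of all genes) the difference was at least 20 percentage points. Over neurons in which the member was detected, the median ratio of means was 1.01, and no member reached 2-fold in either direction, against 11.4% of all genes that were higher in pLSOs and 10.7% that were higher in LOCs. In these neurons the ratio was 1.54 for Cycs, 1.36 for Cox5a, 1.30 for Sdhb, 1.92 for Sdhd and 1.55 for Ndufs1. The ratio of the shares of neurons with the transcript was 1.35, 1.37, 1.49, 1.31 and 1.72 for the same genes. For Cycs and Sdhd the level thus had the larger part in the ratio of means, and for Sdhb and Ndufs1 the detection. At least 1 of Cycs, Cox5a and Sdhb was at 0 in 16 of 28 LOCs and in 8 of 52 pLSOs. Those 16 LOCs held a median of 52 members and the other 12 LOCs 75, and the 8 pLSOs held 56.5 and the other 44 held 72. Of the 16 LOCs, 4 held more than the median of all LOCs. Fewer than 55 members were detected in 11 of 28 LOCs and 4 of 52 pLSOs. Whether those neurons had fewer transcripts or a smaller harvest of RNA cannot be told apart here.

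**Figure D4:**
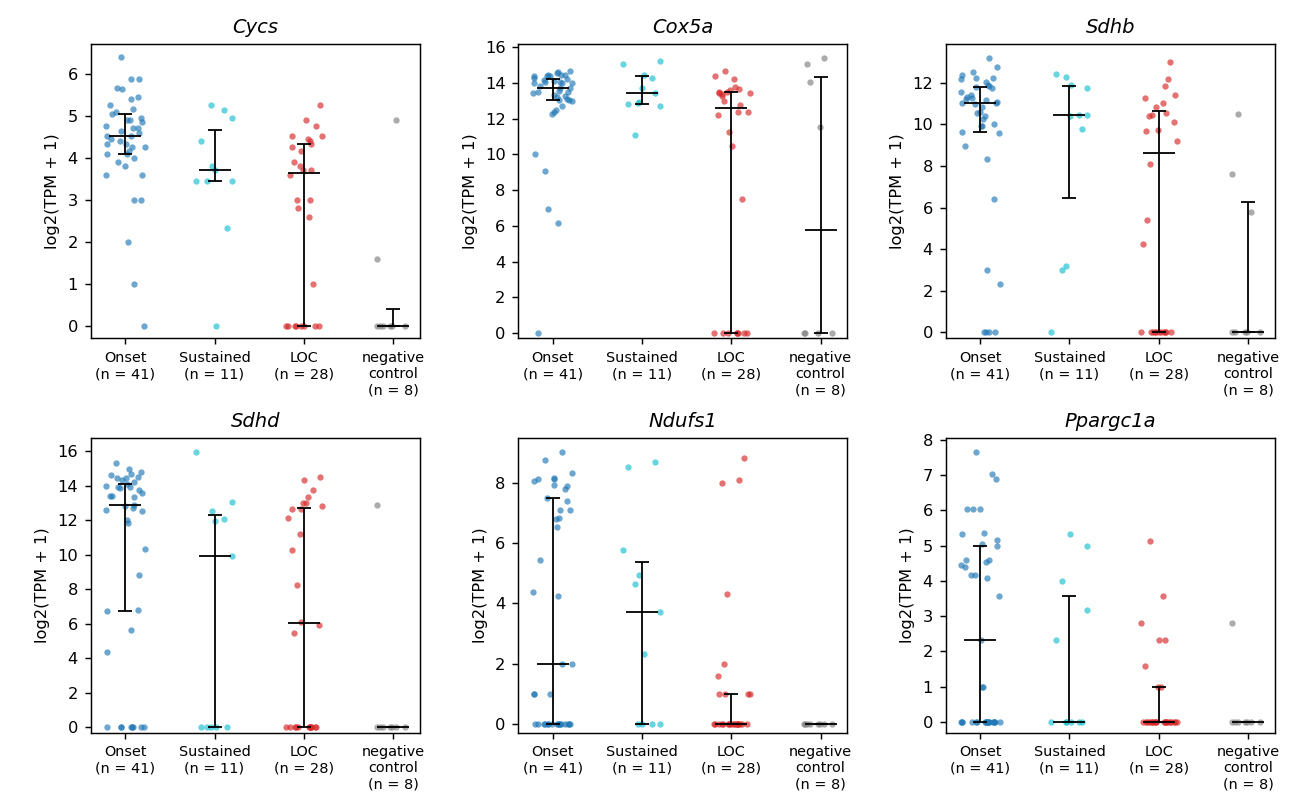
Values as log2(TPM + 1) in each library (points) for 5 members and Ppargc1a, in 41 Onset and 11 Sustained neurons, 28 LOCs and 8 controls, with median and quartiles (bars). Among LOCs, Cycs and Cox5a are at 0 in 8 of 28 and Sdhb in 11 of 28, and the LOCs above 0 lie among the pLSOs.

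Members with the lowest AUROC were Ndufaf8 (0.325), Ndufab1 (0.377), Ndufa8 (0.420), Ndufa12 (0.440) and Ndufs5 (0.440), and all 5 stayed below 0.5 on read shares. Ndufaf8, a complex I assembly gene, was found in 14 of 28 LOCs, 9 of 52 pLSOs and no control, at no more than 11 TPM. Its ratio of means was 0.231, or 0.146 without the highest pLSO and 0.287 without the highest LOC. About 23 reads were needed for a value of 1 TPM. Ndufab1, the mitochondrial acyl carrier protein, had a median of 33.5 in LOCs (0 to 152 TPM), 20.5 in pLSOs (0 to 165 TPM) and a ratio of 0.688. The other assembly genes varied in both directions. Ndufaf4 had a ratio of 2.07, with detection in 26 of 52 pLSOs and 6 of 28 LOCs. This ratio was 1.81 without the highest pLSO and 4.02 without the highest LOC. Ndufaf2 had a ratio of 2.02, with detection in 18 and 4. For Ndufaf2 the ratio was 1.74 without the highest pLSO and 2.92 without the highest LOC. Antisense exons of B230220B15Rik cover 65.6% of the exon bases of Ndufaf2. Over all 8 assembly genes the summed level was lower in pLSOs, at 538 ± 439 own-length TPM (SD, n = 52) against 847 ± 779 (SD, n = 28), a ratio of 0.635. This ratio depended on the scale and was 0.872 on read shares and 0.976 on deposited TPM.

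Summed over all 95 members at own gene length, pLSOs reached 55527 ± 20792 own-length TPM (SD, n = 52) and LOCs 44566 ± 19169 (SD, n = 28). The values ran from 9015 to 118187 in pLSOs with a median of 52750, and from 17196 to 85429 in LOCs with a median of 38915, so that the classes overlapped over most of their range. The ratio of means was 1.25 and the AUROC 0.657, and the median ratio of all single genes on this scale was 1.19. By complex the ratio was 1.19 for complex I, 1.94 for complex II, 1.22 for complex III, 2.19 for cytochrome c, 1.27 for complex IV and 1.31 for complex V. The ratio of the whole sum was 1.22 in the 41 pLSOs and 24 LOCs whose oligodendrocyte markers held under 1% of reads, and 1.52 in the 30 pLSOs and 10 LOCs between the quartiles of detected genes. In LOCs the sum went with the number of detected genes (Spearman's rho 0.72 and Pearson's r 0.72 over 28 neurons), and in Onset neurons it did not (-0.00 and -0.04 over 41 neurons). With the estimated reads rho was 0.06 in LOCs and 0.07 in Onset neurons. These are descriptions over cells of unknown animals.

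**Figure D5:**
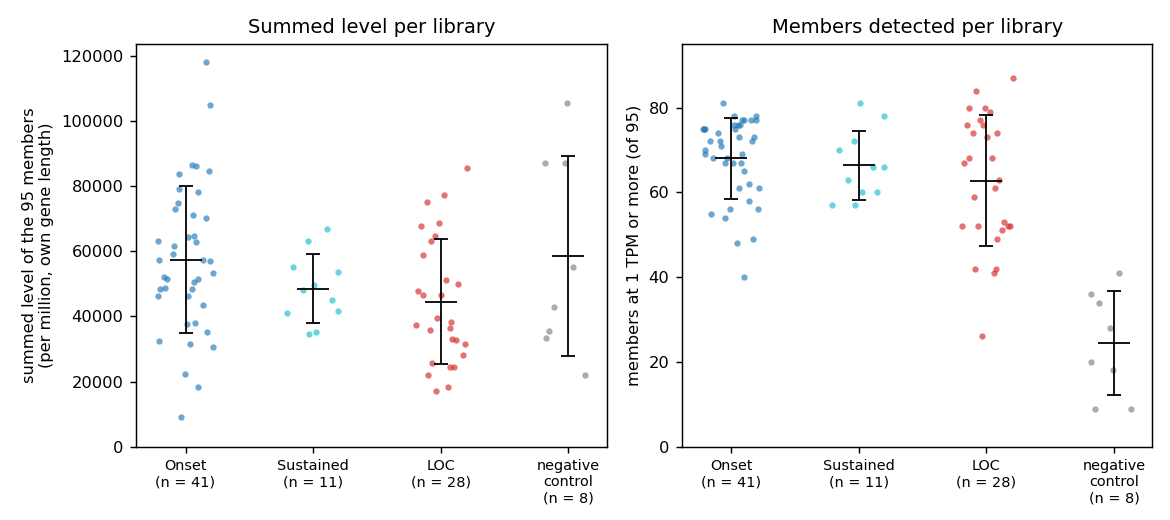
Summed level of the 95 members in own-length TPM (left) and number of members at 1 TPM or more (right) in each library (points), with mean ± SD (bars), for 41 Onset and 11 Sustained neurons, 28 LOCs and 8 negative controls. The groups overlap in summed level, and the controls hold at most 41 members.

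Members varied together from neuron to neuron. Over pairs of the 77 members detected in at least 40 neurons, the median Spearman correlation of read shares was 0.27 in 28 LOCs and 0.21 in 41 Onset neurons. Over pairs of all 1270 genes with that detection it was 0.08 and 0.05. All values of a neuron share its library, depth and total, so a part of any such correlation is common to all genes.

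The comparison of Onset with Sustained neurons, both pLSOs, rested on 41 and 11 neurons. The mean of 6 members was at least 2-fold higher in Onset neurons (7.32% of the 82, among them Ndufa5, Ndufs6, Ndufs7 and Sdhc), against 22.5% of all genes, and of 1 member, Ndufaf7, in Sustained neurons, against 14.9%. The Ndufaf7 ratio of 0.459 turned to 1.78 without 1 Sustained neuron. The AUROC was 0.7 or more for 4 members (4.88%), Ndufs6, Ndufa5, Ndufs7 and Sdhc, against 1.13% of all genes, and 0.3 or less for none, against 2.39%. Among the genes detected in at least 40 neurons, the counts were 6 and 0 of 77 members by fold, against 13.6% and 7.17% of all genes, and 4 and 0 by AUROC, against 2.68% and 3.23%. Over all members the AUROC lay above 0.5 for 54 of 82 (65.9%), while over all genes it did so for 41.9%. The median ratio of means was 1.19 over the members and 1.06 over all genes.

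Of the 4 members with an AUROC of 0.7 or more, 3 belong to complex I, as do 36 of the 82 members that passed the filter. Ndufs6, an accessory subunit close to the iron-sulfur clusters, had a median of 203 TPM in Onset neurons (0 to 997) and 1 TPM in Sustained neurons (0 to 357), with a ratio of means of 2.49 and an AUROC of 0.723. Ndufa5 had medians of 123 TPM (0 to 379) and 47 TPM (0 to 172), with 2.36 and 0.720. Ndufs7, which carries the last iron-sulfur cluster before ubiquinone, had medians of 362 TPM (0 to 2577) and 122 TPM (0 to 546), with 3.06 and 0.712.

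Each of these 3 groups overlapped, and Sustained neurons were more often at 0: Ndufs6 was detected in 35 of 41 Onset and 6 of 11 Sustained neurons, Ndufa5 in 38 and 7, and Ndufs7 in 34 and 8. Sdhc was detected in 23 and 2, with means of 6.9 ± 7.8 TPM (SD, n = 41) and 1.8 ± 4.9 TPM (SD, n = 11). Its ratio of 3.81 moved to 17.3 without 1 Sustained neuron and to 3.55 without the highest Onset neuron. In the order of the classes these genes did not follow each other, since Ndufa5 was at a median of 114 TPM in LOCs, near the Onset value, and Ndufs7 at 38.5 TPM, below both pLSO types. Those with the lowest AUROC were Uqcr10 (0.341), Atp5g3 (0.378) and Ndufb7 (0.400), with ratios of 0.736, 0.637 and 0.814, and the last turned to 1.02 without 1 Sustained neuron.

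By sum at own gene length, complex I reached 20635 ± 9079 own-length TPM in Onset (SD, n = 41) and 14623 ± 3093 in Sustained neurons (SD, n = 11), a ratio of 1.41 with an AUROC of 0.729. Complex III had a ratio of 0.996 and complex V 1.22. The ratio of complex IV turned with the scale, from 1.04 at own gene length to 0.893 on deposited TPM, and that of complex III to 1.11. The sum over all members was 57401 ± 22505 and 48544 ± 10520 own-length TPM, a ratio of 1.18 with an AUROC of 0.641. The Sustained neurons ran from 34484 to 66733, within the wider spread of the Onset neurons.

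Among other genes of the pathway, most did not differ by 2-fold between pLSOs and LOCs either. Of 31 assembly factors, 10 passed the filter and none was past the fold or AUROC limits in either direction, with a median ratio of 0.885. Of 17 carriers and pores, 13 passed. Slc25a5, an ADP/ATP exchanger of the inner membrane, had an AUROC of 0.730 with means of 2566 ± 1803 TPM in pLSOs (SD, n = 52) and 1454 ± 2242 in LOCs (SD, n = 28), and Vdac1, an outer membrane pore, had a ratio of 0.440, with means of 58.9 and 134 TPM, which was 0.683 without the highest LOC. Mpc1, a subunit of the pyruvate carrier, was found in 48 of 52 pLSOs, 20 of 28 LOCs and no control (AUROC 0.681).

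Of 13 genes for expression of the mitochondrial genome, 4 passed, and Mterf3 had a ratio of 0.298, with detection in 16 of 52 pLSOs and 5 of 28 LOCs. The ratio was 0.754 without the 1 LOC at 1822 TPM, and the AUROC of 0.543 lay on the other side. Of 8 oxidant defence genes, 6 passed, and Prdx3, a mitochondrial peroxiredoxin, had a ratio of 0.460. This ratio was 0.563 without the highest LOC and 0.408 without the highest pLSO. No other gene of these lists was past a limit except Ppargc1a.

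Of 8 regulators, 1 passed. Ppargc1a encodes PGC-1alpha, a coactivator known to raise the transcription of respiratory chain genes. It was found in 28 of 52 pLSOs (53.8%, exact 95% interval 39.5 to 67.8%), 8 of 28 LOCs (28.6%, 13.2 to 48.7%) and 1 of 8 controls. Its values ran from 0 to 201 TPM in pLSOs and from 0 to 34 TPM in LOCs, and 10 of 52 pLSOs lay above the highest LOC. The means were 21.0 ± 37.9 TPM (SD, n = 52) and 2.25 ± 6.69 TPM (SD, n = 28), a ratio of 9.34 with an AUROC of 0.678. The ratio was 7.77 without the highest pLSO and 19.6 without the highest LOC. Over neurons in which it was detected the ratio was 4.96, where that of Cycs was 1.54.

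The recordings gave electrical features for the same neurons. The summed level of the members had weak relations to them. Within 41 Onset neurons the strongest was with the action potential threshold (Spearman's rho 0.36, Pearson's r 0.38), followed by the resting potential (0.31 and 0.33). Within 28 LOCs the strongest were with the resting potential (0.35 and 0.27, known for 19 neurons), the action potential halfwidth (-0.34 and -0.19) and the latency at rheobase (-0.32 and -0.26). In all, 9 features were examined in each of these groups, and for all of them the Spearman correlation lay between -0.34 and 0.36.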

How the data were processed

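The authors trimmed the reads (Trim Galore 0.4.2), aligned them to mm10 with STAR, marked duplicates (Picard 1.115), counted primary alignments on genes of Gencode vM2 with featureCounts and deposited TPM as whole numbers. These deposited TPM were treated here as score values, because they had been rounded and the length behind each row was not that of its gene. Symbols, coordinates and gene lengths came from Gencode vM21 (GRCm38, the same build), which held 37570 of the 38887 identifiers. Whether duplicates were removed is not given in the sources used here.

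In the libraries, the value of 1 read and the length of the first 5300 rows were found by maximum likelihood, from the fact that low values are whole multiples of a step (97.4% or more of the low values checked, within rounding). The fitted lengths were held to whole numbers up to 64 that did not fall down the table. Later rows were given sorted vM21 lengths less 80 bases. Estimated reads are deposited value times row length over the value of 1 read, and values at own gene length divide them by the length of the gene less 80 bases. On data simulated for pLSOs and LOCs over 38887 genes, the lengths of 99.83% of the first 5300 rows were recovered exactly, and 2-fold and 4-fold changes gave median log2 ratios of 0.96 and 2.01 relative to unchanged genes. The simulated rows were divided by the same rising lengths, so the simulation could not test that order. Reads are not molecules, as there were no molecular identifiers, and intervals (exact Clopper-Pearson) and limits for a count of 0 (3 over n) cover counting error only.

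The members and lists were chosen with earlier results of these data known, and 8 libraries were left out for reasons found in the data. Named members are the 5 of highest and 5 of lowest AUROC between pLSOs and LOCs, the 3 and 3 between Onset and Sustained neurons, the 2 of highest level at own gene length per complex, all isoform sets and those in at least 6 of 8 controls. Genes of other lists were named where they passed a limit (mean ratio of 2, AUROC of 0.7 or 0.3). Other members, Mpc1 and the cyclic AMP response element were chosen after their values were seen. Calculations used Python 3.11.15, pandas 2.3.3, NumPy 2.4.6 and SciPy 1.17.1, and figures matplotlib 3.10.9. Alternatives changed the scale, filter, summary, pseudocount and neurons used. Single genes withheld from the text are not reported here.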

Additional observations from a re-analysis of the deposited data

Results flagged for a closer look

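In 3 measures, 1 of the 8 controls stood apart from the other 7 by a gap larger than Dixon's 95% limit. NC8 held 8771 estimated reads of members. NC4 held cytochrome c at 558 own-length TPM, and NC1 the complex I assembly genes at 11206 own-length TPM. With 12 measures examined at both ends, some such gaps come by chance, which gives about 1 in 20 groups. For cytochrome c 6 of the 8 controls were at 0, so that rate does not apply there.

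Of the 8 libraries left out, 5 held more members than any control that was kept (41). These were cell_39 with 68 members, cell_54 with 42, cell_78 with 50, cell_85 with 71 and NC6 with 76.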

How the results depend on the processing

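Of members with a mean at least 2-fold higher in pLSOs (5), there were 9 without the filter (41.2% of all genes), 22 with geometric means (26.0%), 2 with 1 or 10 TPM added (15.9% and 8.89%), 12 between the quartiles of detected genes (29.3%) and 3 among those detected in 40 neurons (11.3%). Higher in LOCs (1) were 5 without the filter (25.1%), 3 between the quartiles (19.4%), and 0 with 1 or 10 TPM added, with all 86 neurons or among those detected in 40. An AUROC of 0.7 or more (3) was held by 1 with all 86 neurons (Cycs, 2.20%) and 10 between the quartiles (5.77%). With oligodendrocyte markers under 1% of reads it was held by 1 (Sdhb, 2.94%). An AUROC of 0.3 or less (0) was held by 1 between the quartiles (3.98%). Higher in Onset neurons (6) were 11 without the filter (40.2%), 13 with geometric means (17.3%), 15 between the quartiles (32.8%) and 12 with few oligodendrocyte reads (24.7%). Higher in Sustained neurons (1) were 0 on read shares, at own gene length, with 10 TPM added, with all 86 neurons, between the quartiles and among those detected in 40. An AUROC of 0.7 or more for Onset (4) was held by 2 with all 86 neurons (0.629%) and 12 between the quartiles (5.53%), and of 0.3 or less (0) by 1 with few oligodendrocyte reads (3.70%). At 10 TPM, 11 and not 25 members were detected in 90% of neurons, and with all 10 controls 42 and not 18 in at least 4. Atp5g1 in place of Atp5g3 led its set with 67.92% on read shares and 48.88% with all 86 neurons. The filter at 40 neurons, the choice by oligodendrocyte reads and the ratios without 1 highest neuron were chosen after seeing the data. The counts thus depended on the neurons and the summary used, and the cause was not tested. The ratio of the summed level kept its direction, at 1.22 to 1.52 for pLSOs over LOCs and 1.15 to 1.28 for Onset over Sustained neurons. No paired analysis was possible because the labels give no replicate that the classes share.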
